A study of Mus musculus with 4 samples.

Results

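Interferon-responding T cells of the mouse liver were defined here as cells with at least 1 UMI (unique molecular identifier, which marks 1 captured transcript) of Cd3d, Cd3e and Cd3g together and at least 2 UMIs of Ifit1, Ifit2, Ifit3, Rsad2 and Usp18 together. They also had no Cd79a and no Siglech UMI and at most 1 Lyz2 UMI, which removes most B cells, plasmacytoid dendritic cells and myeloid cells. This rule picked 373 of 7941 T cells, out of 20464 barcodes in all, of which 20039 had at least 200 genes and under 10% mitochondrial UMIs. The 5 genes chose the cells, so their levels describe the selection, and the T cells in which they sum to 0 (6979 cells) served for contrast.

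The cells came from IL-22sgBFP mice, in which blue fluorescent protein reports Il22, the gene of a cytokine that acts on epithelial cells. Liver leukocytes were sorted as CD45-positive and split by the reporter, 12 h after MC38 cells, a mouse colon carcinoma line, had been injected into the spleen, or before any injection (0 h). The 4 libraries hold IL-22-positive cells of 12 h and of 0 h, and IL-22-negative cells of 12 h and of 0 h, with 1378, 300, 10231 and 8555 barcodes in that order. The design text asks which leukocytes express Il22 before and after the injection. The labels do not say how many mice stand behind a library. A sham injection was not analysed here, so surgery, time and cancer cells cannot be told apart. Each group is 1 library, so no test between conditions was possible, and every 95% interval below covers counting error alone.

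Type I interferons are recognised by a receptor that nearly all cells carry, and the kinases JAK1 and TYK2 then pass the signal on. A complex that holds IRF9 binds interferon-stimulated response elements, DNA stretches with repeated GAAA, in front of many genes. Interferon gamma signals through gamma-activated sites in DNA and induces an overlapping set of genes. In T cells the response brings antiviral proteins and higher antigen processing, and type I interferons are known to raise CD69, which holds lymphocytes in tissue.

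The promoters shown are those of 3 of the 5 rule genes and of some leading genes of the response. They were picked because the response element can be read in them. Ifit2, without a match, Usp18, without a promoter entry, and leading genes without a match, such as Isg20, are not shown. The windows run over the 220 bases before the annotated start, 5′ to 3′ on the strand of the gene, from RefSeq on GRCm38.p6, and capitals mark each match to the motif searched, which is GAAA, any 2 bases and GAAA again, read on either strand.
Ifit1, chr19:34640669-34640888, plus strand: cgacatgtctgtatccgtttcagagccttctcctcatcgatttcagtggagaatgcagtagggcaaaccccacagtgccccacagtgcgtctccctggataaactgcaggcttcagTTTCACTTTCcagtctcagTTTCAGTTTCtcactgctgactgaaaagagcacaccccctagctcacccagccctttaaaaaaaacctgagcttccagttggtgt
Ifit3, chr19:34583309-34583528, plus strand: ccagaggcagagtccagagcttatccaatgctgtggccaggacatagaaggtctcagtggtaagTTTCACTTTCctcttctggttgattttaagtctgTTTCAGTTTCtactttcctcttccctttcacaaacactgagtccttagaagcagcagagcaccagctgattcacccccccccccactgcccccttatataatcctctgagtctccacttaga
Ifit3b, chr19:34607737-34607956, plus strand: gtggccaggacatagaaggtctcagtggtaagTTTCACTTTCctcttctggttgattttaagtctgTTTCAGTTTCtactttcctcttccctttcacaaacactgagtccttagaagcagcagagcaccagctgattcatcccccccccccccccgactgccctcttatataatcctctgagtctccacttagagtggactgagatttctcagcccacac
Rsad2, chr12:26456453-26456672, minus strand: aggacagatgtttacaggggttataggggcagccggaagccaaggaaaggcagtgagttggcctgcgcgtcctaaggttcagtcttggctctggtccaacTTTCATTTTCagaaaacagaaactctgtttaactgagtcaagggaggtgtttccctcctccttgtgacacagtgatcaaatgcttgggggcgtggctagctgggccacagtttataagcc
Isg15, chr4:156200819-156201038, minus strand: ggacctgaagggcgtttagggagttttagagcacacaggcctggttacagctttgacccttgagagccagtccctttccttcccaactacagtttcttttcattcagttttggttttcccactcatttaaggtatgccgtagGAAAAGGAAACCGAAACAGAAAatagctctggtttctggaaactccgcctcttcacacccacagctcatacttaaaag
Cxcl10, chr5:92348890-92349109, minus strand: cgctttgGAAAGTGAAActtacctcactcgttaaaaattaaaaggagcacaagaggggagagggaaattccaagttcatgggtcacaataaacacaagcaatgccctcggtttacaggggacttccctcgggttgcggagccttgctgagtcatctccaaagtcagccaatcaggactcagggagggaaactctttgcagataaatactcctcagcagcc
Gbp2, chr3:142620443-142620662, plus strand: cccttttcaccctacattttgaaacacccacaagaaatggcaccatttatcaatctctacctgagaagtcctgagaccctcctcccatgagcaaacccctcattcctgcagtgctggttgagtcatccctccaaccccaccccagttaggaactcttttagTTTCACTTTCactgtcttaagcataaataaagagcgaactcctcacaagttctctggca

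Isg15 held 3 overlapping matches between 78 and 66 bases before its start, Ifit1 held matches 104 and 85 bases before it, and Cxcl10 held its single match 213 bases before it. Ifit3 and Ifit3b, near-identical neighbours on chromosome 19, carried the same pair of matches, 156 and 122 bases before the start of Ifit3 and 188 and 154 bases before that of Ifit3b. Reads of 1 may therefore have been counted for the other, as may those of Ifit1 and Ifit1bl1. Ifit2 held no match in its window, which says only that these letters are not there. The motif was then counted in windows of 250 bases before and 50 after the start, over genes with an entry. It was present for 1079 of 27025 genes of the table (3.99%) and for 98 of 1767 genes that passed the minimum level at 12 h (5.55%).

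In the IL-22-positive libraries 1 of 39 T cells responded at 12 h (2.56%, exact Clopper-Pearson 95% interval 0.0649 to 13.5) and 1 of 35 at 0 h (2.86%, 0.0723 to 14.9). In the IL-22-negative libraries 316 of 4568 T cells responded at 12 h (6.92%, 6.20 to 7.69), against 55 of 3299 at 0 h (1.67%, 1.26 to 2.16). The share at 12 h was 4.15 times that at 0 h (3.13 to 5.51), and the intervals of both shares lie apart. The 12 h responder of the IL-22-positive library held 5 Cd8b1 UMIs and 6 Isg15 UMIs, and the 0 h responder held 1 Cd4 and 46 Isg15 UMIs. Neither held an Il22 UMI, and with 1 cell each they enter no further comparison.

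Cells past the bar by a wide margin were mostly cells of 12 h. Among 12 h T cells of the IL-22-negative library 112 had a 5-gene sum of exactly 2, 46 a sum of 3, 40 a sum of 4, 91 a sum of 5 to 9 and 27 a sum of 10 or more, with a highest value of 44. At 0 h the same classes held 30, 10, 3, 12 and 0 cells, and the highest sum was 9. No 0 h cell reached a sum of 10, and 0 of 3299 cells allows a share of up to 0.0909% with 3 cells taken as the limit of a count of 0 (0.112% as the exact upper bound). Just outside the bar, with a sum of 1, lay 361 cells of 12 h (7.90%) and 222 cells of 0 h (6.73%). A sum of exactly 2 came from 2 UMIs of the same gene in 42 of 112 cells at 12 h and in 18 of 30 cells at 0 h. All 5 genes were present in 25 of 316 responders of 12 h and in 1 of 55 of 0 h.

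**Figure D1:**
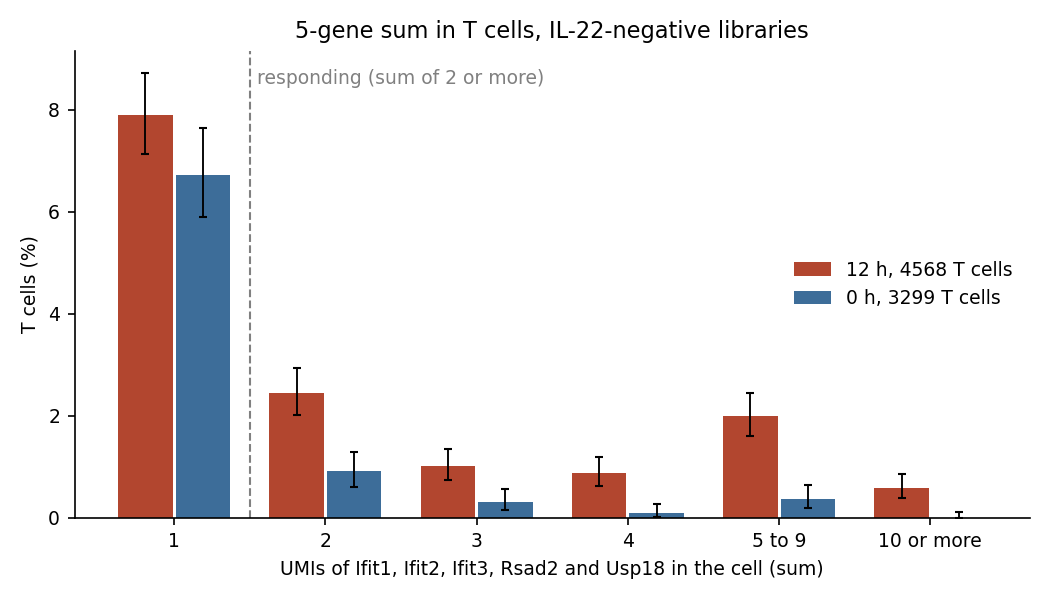
Percentage of T cells (y axis) by the summed UMIs of the 5 rule genes (x axis) in both IL-22-negative libraries (12 h, 0 h), with exact 95% intervals as black bars. Sums of 5 to 9 held 1.99% of T cells at 12 h and 0.364% at 0 h, and a sum of 1 held 7.90% and 6.73%.

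The members at 12 h held Usp18, which removes ISG15 from proteins and dampens the type I receptor, in 197 of 316 cells. Ifit1, whose protein binds viral RNA, was present in 196 cells, Ifit3, its partner, in 183, Rsad2 (viperin), which makes a chain-terminating nucleotide, in 130 and Ifit2 in 116. At 0 h Ifit1 was present in 32 of 55 members, Usp18 in 27, Ifit3 in 25, Ifit2 in 14 and Rsad2 in 9. Rsad2 thus marked 41.1% of members at 12 h and 16.4% at 0 h.

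Responders were sequenced somewhat deeper than the cells they were set against, which bears on any share set by a fixed number of UMIs. Their median was 2698.5 UMIs at 12 h and 2627 at 0 h, while 5-gene-negative T cells had 2205 and 2038. When every cell was thinned to 1000 UMIs and the rule applied again, 3.09% of T cells responded at 12 h (2.59 to 3.66) and 0.645% at 0 h (0.376 to 1.03), a ratio of 4.79 (2.90 to 7.92). This left out 263 T cells of 12 h and 730 of 0 h that were too shallow. The shares therefore depend on depth, while the ratio between the times stayed within its interval.

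T-cell markers were present in the members, which Cd3d, Cd3e and Cd3g had helped to choose. No T-cell marker differed 2-fold at 12 h, but 9 of 11 measured ones were lower in responders (median log2 ratio -0.14), Cd3g among them (998 against 1366 CPM, counts per 1000000 UMIs of the summed cells). Of genes that the rule did not use, Trac (T cell receptor alpha constant) and Cd2 (adhesion receptor) were the 2 with ratios above 1, at 121 against 117 CPM and 419 against 388 CPM. Thy1, a surface marker of T cells, stood at 89.9 against 139.7 CPM and Lck (the kinase next to the receptor) at 300 against 323 CPM. Summed over the 12 T-cell markers, including the 3 of the rule, responders had 4413 CPM and negative cells 5217 CPM. Markers of other cells were low but present. At least 1 basophil-gene UMI, over 3 class II UMIs or over 3 S100a8 and S100a9 UMIs were found in 7 of 316 responders of 12 h and in 2 of 55 of 0 h, against 65 of 3891 and 88 of 3022 negative cells at 12 h and 0 h. Basophil genes alone were found in 2 of 55 responders (3.64%) and 8 of 3022 negative cells (0.265%) at 0 h. At 12 h they were found in 1 of 316 (0.316%) and 7 of 3891 (0.180%). Of the natural killer cell genes, which T cells of the liver share in part, Ncr1 stood at 49.8 CPM in responders and 59.0 CPM in negative cells at 12 h. Hepatocyte transcripts were close to 0, with Alb at 0 CPM in responders of both times. Between libraries 151 barcodes were shared, 3 of them of a responder and none of a responder in both libraries, and no doublet was removed.

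Responders were found in every T-cell subset examined, and at 12 h the intervals of the subsets overlapped once depth was equal. Cells were assigned by at least 1 UMI of Cd8b1 (CD8 beta chain), Cd4, Zbtb16 (PLZF, of innate-like T cells) or Trdc (gamma-delta T cell receptor). Of Cd8b1-positive T cells 104 of 1042 responded at 12 h (9.98%, 8.23 to 12.0) and 17 of 783 at 0 h (2.17%, 1.27 to 3.45). Of Cd4-positive cells 26 of 432 responded at 12 h (6.02%, 3.97 to 8.69) and 12 of 379 at 0 h (3.17%, 1.65 to 5.47).

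Zbtb16-positive cells responded in 12 of 220 cases at 12 h (5.45%, 2.85 to 9.33) and in 2 of 144 at 0 h (1.39%, 0.169 to 4.93). Trdc-positive cells responded in 10 of 127 cases at 12 h (7.87%, 3.84 to 14.0) and in 1 of 85 at 0 h (1.18%, 0.0298 to 6.38). Cells with none of the 4 genes, the largest class, responded in 168 of 2815 cases at 12 h (5.97%) and in 25 of 1974 at 0 h (1.27%). At the own depth of the cells the 12 h share exceeded the 0 h share in all 4 subsets and in the unassigned cells. With every cell thinned to 1000 UMIs and the rule and subset applied again, Cd4-positive cells turned to 2.82% at 12 h against 3.42% at 0 h (0.825, 0.244 to 2.79). Without thinning, the interval of the ratio between the times lay above 1 for Cd8b1-positive cells (4.60, 2.78 to 7.61) and for cells with none of the 4 (4.71, 3.11 to 7.14). Also without thinning, it included 1 for Cd4-positive cells (1.90, 0.973 to 3.71), Zbtb16-positive cells (3.93, 0.892 to 17.3) and Trdc-positive cells (6.69, 0.873 to 51.3).

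At 12 h the Cd8b1-positive share was 1.66 times the Cd4-positive share (1.10 to 2.51). Cd8b1-positive cells were also the deeper ones, and among responders they had a median of 4080.5 UMIs, against 2572.5 in Cd4-positive responders. With the 5-gene sum taken at 1000 UMIs per cell, 3.35% of Cd8b1-positive cells (2.33 to 4.65) and 2.23% of Cd4-positive cells (1.02 to 4.19) responded at 12 h, and the interval of their ratio (0.728 to 3.11) includes 1. At that depth 2.86% of Zbtb16-positive, 2.38% of Trdc-positive and 3.48% of unassigned cells responded, all with overlapping intervals. At 0 h the equal-depth share of Cd8b1-positive cells was 0.405% (0.0837 to 1.18) and that of Cd4-positive cells 2.06% (0.760 to 4.43), so Cd4-positive cells then had the higher value, on 6 cells against 3. The ratio between the times at equal depth was 8.26 (2.55 to 26.8) in Cd8b1-positive cells and 1.08 (0.389 to 3.00) in Cd4-positive cells, and these intervals overlap.

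Within the subsets the response was also present in genes outside the rule. Isg15 of 12 h stood at 2313 CPM in Cd8b1-positive responders and 105 CPM in Cd8b1-positive negative cells, and at 3088 CPM in Cd4-positive responders and 123 CPM in Cd4-positive negative cells. Zbtb16-positive responders had 4525 CPM and their negative cells 209 CPM, and Trdc-positive responders had 2467 CPM and theirs 173 CPM, on 12 and 10 responders. At 0 h Isg15 was at 837 CPM in the 17 Cd8b1-positive responders and 1840 CPM in the 12 Cd4-positive ones, while neither of the 2 Zbtb16-positive responders held an Isg15 UMI.

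**Figure D2:**
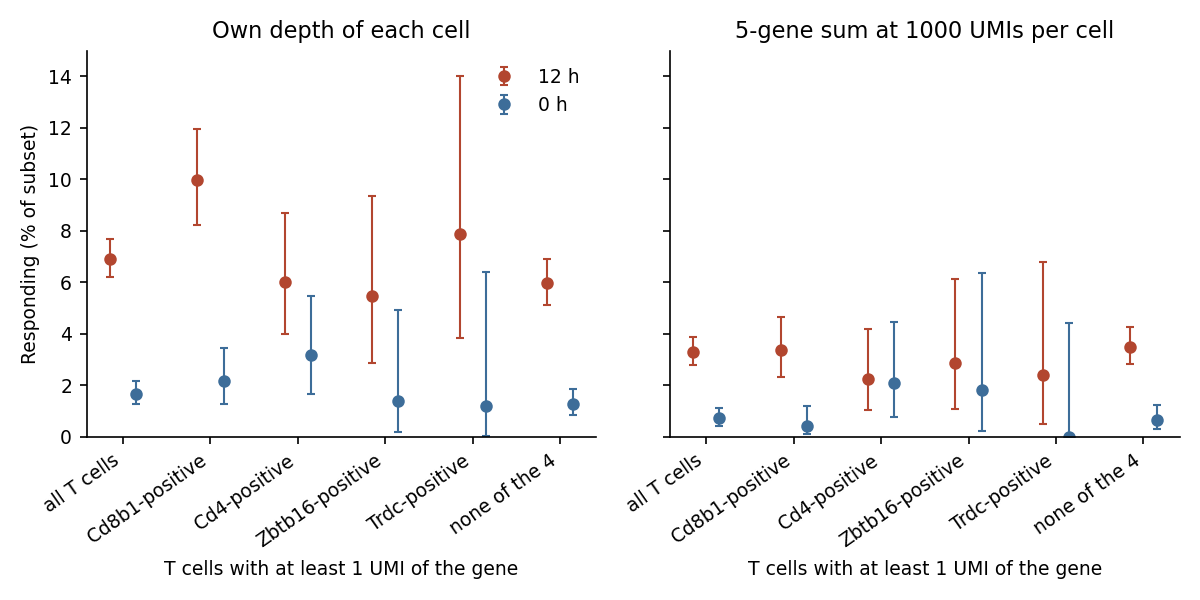
Percentage of each T-cell subset (x axis) that responded (y axis, with exact 95% intervals) in both IL-22-negative libraries (12 h, 0 h), at the own depth of each cell and with the 5-gene sum at 1000 UMIs per cell. Cd8b1-positive cells of 12 h stand at 9.98% on the left and at 3.35% on the right, where the 12 h intervals of all subsets overlap.

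By state, responding cells of 12 h made up 10.5% of T cells with Gzmb (granzyme B, 8.90 to 12.2), 9.40% of those with Cd69 (8.26 to 10.6) and 13.4% of those with Foxp3 (the regulatory T cell factor, 9 of 67 cells, 6.33 to 24.0). The share was 4.77% among cells with Klrb1c (NK1.1, 3.73 to 5.98) and 6.45% among cells with Lef1, a factor of naive T cells (5.06 to 8.07). No responder was found among the 39 cells with Trav11, the invariant NKT alpha chain segment, which allows a share of up to 7.69% by the limit of 3 cells (9.03% as the exact upper bound). These genes are detected more often in deeper cells, so the shares were taken again with the 5-gene sum at 1000 UMIs. They were then 5.18% of Gzmb-positive (4.05 to 6.51), 4.53% of Cd69-positive (3.72 to 5.46), 6.06% of Foxp3-positive (1.68 to 14.8), 1.82% of Klrb1c-positive (1.19 to 2.66) and 1.90% of Lef1-positive cells (1.17 to 2.92). At both depths the intervals of Gzmb-positive and Cd69-positive cells lie above those of Klrb1c-positive and Lef1-positive cells, without correction for the number of subsets compared.

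Other leukocytes of the same libraries, gated by their own markers, met the 2-UMI bar to different degrees. Among IL-22-negative cells of 12 h it was met by 6.92% of T cells, 3.52% of NK cells (28 of 796), 12.8% of monocytes (69 of 538), 3.52% of plasmacytoid dendritic cells (12 of 341) and 0.712% of B cells (13 of 1827). At 0 h the shares were 1.67%, 0.266%, 9.43%, 2.27% and 0.356% in the same order. Each share was higher at 12 h, and that of monocytes was the highest at both times. The intervals of both times lay apart for T cells and NK cells and overlapped for the other 3 classes. With every cell thinned to 1000 UMIs, B cells stood at 0.287% at 12 h and 0.283% at 0 h, and monocytes at 5.75% and 4.35%. Median depth at 12 h was 2253 UMIs in T cells, 1643 in B cells and 5054.5 in monocytes. The 5 genes were mixed differently by cell type, with Rsad2 making up 13.8% of the 5-gene UMIs of T cells at 12 h and 30.2% of those of monocytes.

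Transcripts of type I interferons were nearly absent. Over 17 type I genes there was 1 UMI among all 10231 barcodes of the IL-22-negative library at 12 h, in a 5-gene-negative T cell, and none at 0 h. In the IL-22-positive libraries there were none at 12 h and 2 at 0 h. Ifng, the interferon gamma gene, was present in T cells, at 257 CPM in responders (227 to 290) and 170 CPM in negative cells (162 to 178) at 12 h, and at 208 CPM (146 to 288) and 174 CPM (164 to 184) at 0 h. NK cells had higher levels, 362 CPM at 12 h and 332 CPM at 0 h.

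Responding T cells of 12 h carried a broad antiviral and interferon-induced program beyond the 5 genes. Of 2189 genes with a mean of at least 50 CPM over both sums and at least 20 UMIs in the higher sum, 96 were at least 2-fold higher in responding than in 5-gene-negative T cells (4.39% of the genes) and 7 at least 2-fold lower (0.32%). The median gene had a log2 ratio of -0.07. Of the 96 genes, 58 belong to lists of interferon-related genes, as do 91 of the 2189. Genes low in negative cells passed the minimum only if they were high in responders. All these ratios come from the contrast that chose the cells and describe it.

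The response element of the printed promoters recurred among these genes. Of the 96 genes 81 had a promoter entry, and 32 of them held the GAAA repeat (39.5%), against 5.55% of all genes that passed the minimum level. Of the genes at least 2-fold higher at 0 h it was held by 18 of 38 with an entry (47.4%). Within the 96, 26 of 48 genes of the interferon lists held it (54.2%), and 6 of 33 of the others (18.2%). The gamma-activated site, searched as TTCNNNGAA, which reads the same on both strands, was held by 14 of 81 (17.3%). It was held by 9.05% of all genes that passed the minimum level and by 9.55% of all genes of the table. Within the 96, 12 of 48 genes of the interferon lists held it (25%), and 2 of 33 of the others (6.06%). Of the 16 GTPases listed, whether or not among the 96, 10 had an entry. Of these, 6 held the gamma-activated site and 9 the GAAA repeat. None of the 6 genes with an entry among the lower ones held either motif. At shares of 5.55% and 9.05% over all genes that passed the minimum level, 6 genes are too few to show a difference. A match is a stretch of letters and no shown binding site.

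Isg15, a ubiquitin-like protein that is attached to other proteins during the response, stood at 3318 CPM in responding and 154 CPM in negative T cells of 12 h (ratio 21.5, 20.3 to 22.9), and at 1552 against 123 CPM at 0 h (12.6, 10.9 to 14.5). It was present in 284 of 316 responders (89.9%) and 821 of 3891 negative cells (21.1%) at 12 h. Cxcl10, a chemokine that attracts cells with CXCR3, stood at 1619 against 47.2 CPM at 12 h (34.3, 30.9 to 38.1) and at 542 against 39.4 CPM at 0 h (13.8, 10.8 to 17.5). At 0 h its 94 UMIs lay in 12 of 55 responders, and 45 of them in 1 cell.

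Ifit3b had the highest ratio, at 172 against 4.41 CPM at 12 h (39.0, 27.9 to 55.5) and 98.1 against 1.95 CPM at 0 h (50.4, on 17 and 13 UMIs). It may share reads with the rule gene Ifit3, as may Ifit1bl1 with Ifit1, so these 2 ratios may be carried over from the rule. Cmpk2, a mitochondrial nucleotide kinase next to Rsad2 in the genome, stood at 108 against 5.82 CPM at 12 h (18.6, 13.5 to 26.1), and Slfn5, of the schlafen family, at 453 against 34.5 CPM (13.1, 11.4 to 15.1). Isg20, an RNA exonuclease, stood at 609 against 50.3 CPM (12.1, 10.7 to 13.6). The genes of Oasl2 (an oligoadenylate synthetase-like protein), Ifih1 (the RNA sensor MDA5), Ube2l6 (the conjugating enzyme for ISG15) and Rtp4 had ratios from 7.58 to 10.8. Herc6 (the mouse ligase for ISG15), Ifit1bl1, Daxx, Zbp1 (a sensor of Z-form nucleic acid), Eif2ak2 (the kinase PKR), Phf11b, Irf7, Ifi214, Xaf1 and Gbp2 had ratios from 5.77 to 7.15. Of the ISG15 pathway, Isg15 itself, Ube2l6 and Herc6 were thus among these genes. Usp18 helped to choose the cells and so adds nothing to this.

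**Figure D3:**
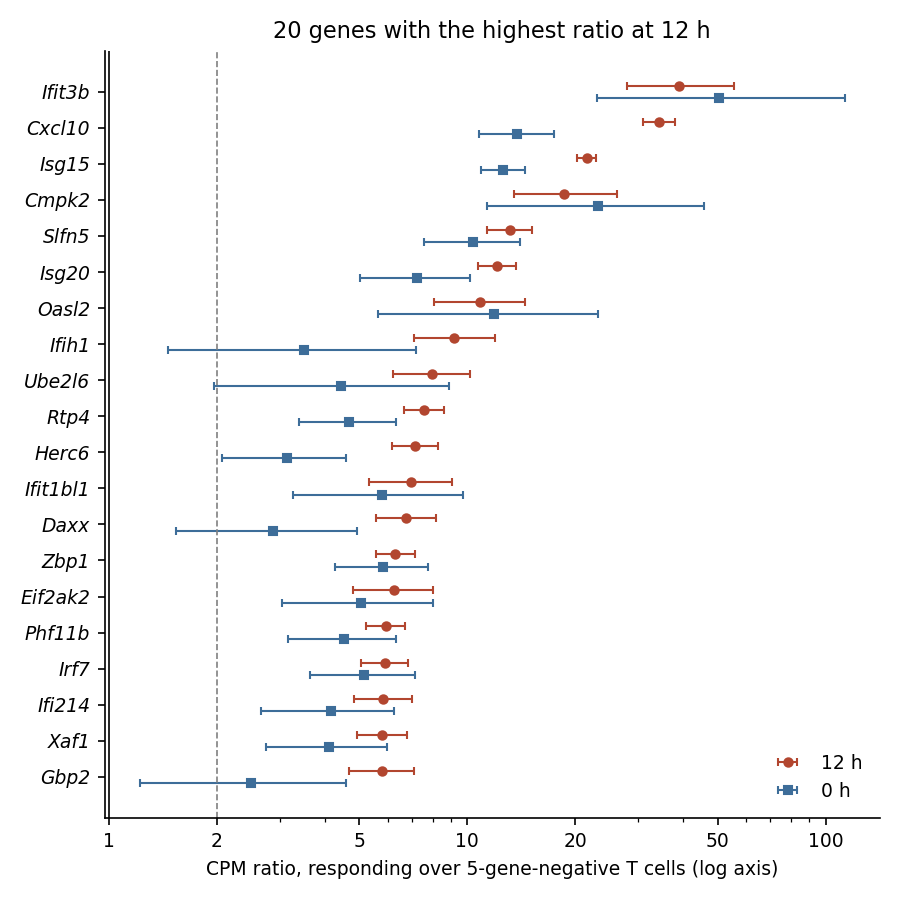
Ratio of CPM in responding over 5-gene-negative T cells (x axis, log scale, with exact 95% intervals) for the 20 genes outside the rule with the highest ratio at 12 h, at 12 h (circles) and 0 h (squares). All 20 are above 2 at 12 h and at 0 h, where the interval of Gbp2 starts at 1.22. Ifit3b and Ifit1bl1 may share reads with the rule genes Ifit3 and Ifit1.

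By group, nearly all measured antiviral effectors were higher in responders of 12 h. Of 57 listed genes 55 are in the table and 45 passed the minimum level at 12 h, of which 38 were at least 2-fold higher in responders and none 2-fold lower. Their median log2 ratio was 2.05. The 7 others were Ifitm2 (0.984), Ly6e (1.11), Shisa5 (1.41), Epsti1 (1.71), Ly6c2 (1.87), Sp100 (1.90) and Slfn2 (1.97). A gene below the minimum, such as Oas2 (16 UMIs in responders, 12 in negative cells), gives no part of that count. Genes low in negative cells, such as Cmpk2 (5.82 CPM) and Oasl2 (9.13 CPM), passed the minimum only through responders. The count of 38 is therefore in part set by the minimum. The list was also chosen with earlier results of these data known. Bst2 (tetherin), which holds budding virus at the cell surface, stood at 1140 against 225 CPM (5.06, 4.71 to 5.43), and Ifitm3, which blocks viral entry, at 378 against 85.6 CPM (4.42, 3.91 to 4.99). Ifi27l2a, a small mitochondrial protein gene, had one of the highest levels of the list, at 2445 against 829 CPM (2.95, 2.82 to 3.08).

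The interferon-inducible GTPases, which are best known as targets of interferon gamma, were higher as well. Of 16 listed genes 10 passed the minimum level, and all 10 were at least 2-fold higher at 12 h, with a median log2 ratio of 1.81. The minimum is a mean over both sums. Genes low in negative cells, such as Gbp6 (23.8 CPM) and Tgtp1 (24.9 CPM), thus passed it only through responders. The count of 10 out of 10 is therefore in part set by the minimum. The 10 included Gbp2 at 148 against 25.6 CPM (5.77, 4.69 to 7.08), Gbp6 (5.55), Tgtp1 (5.23), Igtp (4.97) and Ifi47 (3.02). Tgtp1 and Tgtp2, and the Gbp genes of the same clusters, are close copies, and how reads were split between them is uncertain. Cxcl9, a chemokine that depends strongly on interferon gamma, was below the minimum level with 50 UMIs in responders and 11 in negative cells (48.9 against 1.10 CPM), and 46 of the 50 lay in 1 cell.

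Of the signalling genes, Irf7, which amplifies type I interferon production, stood at 275 against 46.6 CPM (5.89, 5.06 to 6.84) and Irf9 at 86.0 against 40.4 CPM (2.13, 1.67 to 2.69). The receptor and kinase genes did not differ by that much, with Ifnar2 at 0.937 (0.754 to 1.15), Ifngr1 at 0.921 (0.796 to 1.06) and Jak1 at 0.953 (0.871 to 1.04). Of 4 measured genes in the list of transcription factors, 2 were at least 2-fold higher (Irf7 and Irf8, at 2.47), while Irf1 stood at 1.82 (1.65 to 2.01). Socs1, which inhibits JAK kinases, was at 362 against 126 CPM (2.88, 2.55 to 3.23) and was the only one of 5 measured feedback genes past 2-fold.

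Genes of class I antigen presentation were higher by less. All 16 that passed the minimum had ratios above 1 at 12 h (median 0.58 on the log2 scale), and only H2-T22 (2.12, 1.82 to 2.47) and Tap1, a peptide transporter (2.07, 1.62 to 2.62), reached 2-fold. B2m, the light chain of class I, stood at 2946 against 2592 CPM (1.14, 1.09 to 1.18), and H2-K1 at 1.05 (1.01 to 1.09). The subunits Psmb8, Psmb9 and Psmb10 of the immunoproteasome had ratios of 1.48, 1.66 and 1.93. Class I genes are similar in sequence, so values of single H2-Q and H2-T genes are uncertain.

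T-cell state genes separated the responders of 12 h in part. Cd69 stood at 958 against 450 CPM (2.13, 1.99 to 2.28), the only one of 7 measured activation genes past 2-fold, and Gzmb at 887 against 378 CPM (2.35, 2.18 to 2.52). Il7r, the receptor of a survival cytokine, was at 205 against 370 CPM (0.555, 0.480 to 0.637), Klf2, a factor of recirculating cells, at 1134 against 1623 CPM (0.698, 0.657 to 0.741) and Lef1 at 88.0 against 137 CPM (0.642, 0.512 to 0.794). None of the 7 measured genes of that naive and recirculating list was 2-fold lower, and its median log2 ratio was -0.52. Among genes of liver-resident and innate-like cells, Cxcr6 stood at 58.6 against 102 CPM (0.575, 0.436 to 0.747), Cd160 at 145 against 267 CPM (0.542, 0.456 to 0.639) and Klrb1c at 169 against 262 CPM (0.644, 0.549 to 0.752). Cxcr3, the receptor for Cxcl10, stood at 133 against 208 CPM (0.639, 0.533 to 0.760). None of 6 measured proliferation genes and none of 8 glycolysis genes differed 2-fold.

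The lowest ratios at 12 h belonged to S100a9 (0.0353) and S100a8 (0.0875), calprotectin subunits of neutrophils. In negative cells their UMIs lay in a few cells, and 8 of 3891 had more than 3. Without cells that held markers of other leukocytes the ratios were 1.29 and 1.71, but these 2 genes are among the markers that chose the cells left out, so this is no separate check. Next came Rgcc (29.3 against 88.6 CPM, 0.331, 0.222 to 0.476), Rflnb (50.8 against 134 CPM, 0.380), Ramp1, a receptor-modifying protein (30.3 against 77.8 CPM, 0.389), Sesn1, a p53 target (0.469), Mapre2, a microtubule protein (0.475), Tmem176b (0.510), Cd7 (0.511) and Inpp4b (0.512). Cd7, a surface glycoprotein of T and NK cells, was at 604 against 1181 CPM at 12 h and at 427 against 858 CPM at 0 h (0.498, 0.390 to 0.626).

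Before injection the responders differed from negative cells by many of the same genes. Apart from Ifit3b, Cmpk2 and Oasl2, each of the 20 genes with the highest ratios at 12 h had a lower ratio at 0 h than at 12 h. The 20 were picked by their ratio at 12 h, so lower ratios at 0 h follow in part from that choice. At 0 h 48 of 1779 genes were at least 2-fold higher (2.7%) and 51 at least 2-fold lower (2.87%), in sums of 173276 UMIs for responders and 6676807 for negative cells. The median gene had a log2 ratio of -0.12 there, and with scaling by the median ratio the split was 54 higher and 33 lower. Of the genes higher at 0 h 36 were also among the 96 of 12 h, which is 75% of the 48 and 37.5% of the 96. The minimum of 20 UMIs bore harder on the responder sum of 0 h than on that of 12 h (1023182 UMIs). Gbp2, past 2-fold at 0 h on 11 UMIs, was thus not among the 48. The numbers of higher genes at the 2 times are therefore not on equal terms. The same 5 genes chose the responders at both times, so shared genes are in part built in. Of the 96 genes 86 had a ratio above 1 at 0 h. Antiviral effectors at 0 h were 2-fold higher for 23 of 33 measured genes, with a median log2 ratio of 1.23, and GTPases for 4 of 5. Here too, genes low in negative cells passed the minimum only through responders.

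Most other interferon genes were higher the higher the 5-gene sum of the cells, across the bar as well as above it. At 12 h Isg15 stood at 154 CPM in cells with a sum of 0, 550 CPM with a sum of 1, 1686 CPM with a sum of 2, 3524 CPM with 3 to 4 and 4556 CPM with 5 or more. At 0 h the same classes had 123, 289, 849, 1103 and 3666 CPM. Cells with a sum of 1, which the rule left out, thus had higher Isg15 than cells with 0 at both times. Across the bar Isg15 rose from 550 to 1686 CPM at 12 h and from 289 to 849 CPM at 0 h. Irf7 was at 46.6, 85.8, 170, 253 and 378 CPM at 12 h and at 47.0, 68.4, 184, 254 and 374 CPM at 0 h, and its intervals at both times overlapped in each class. Cells of 0 h with a sum of 2 departed from this order, with Cxcl10 at 30.7 CPM, below the 122 CPM of cells with a sum of 1. B2m differed far less, at 2592 CPM with a sum of 0 and 3098 CPM with 5 or more at 12 h, and at 2426 and 3366 CPM at 0 h.

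**Figure D4:**
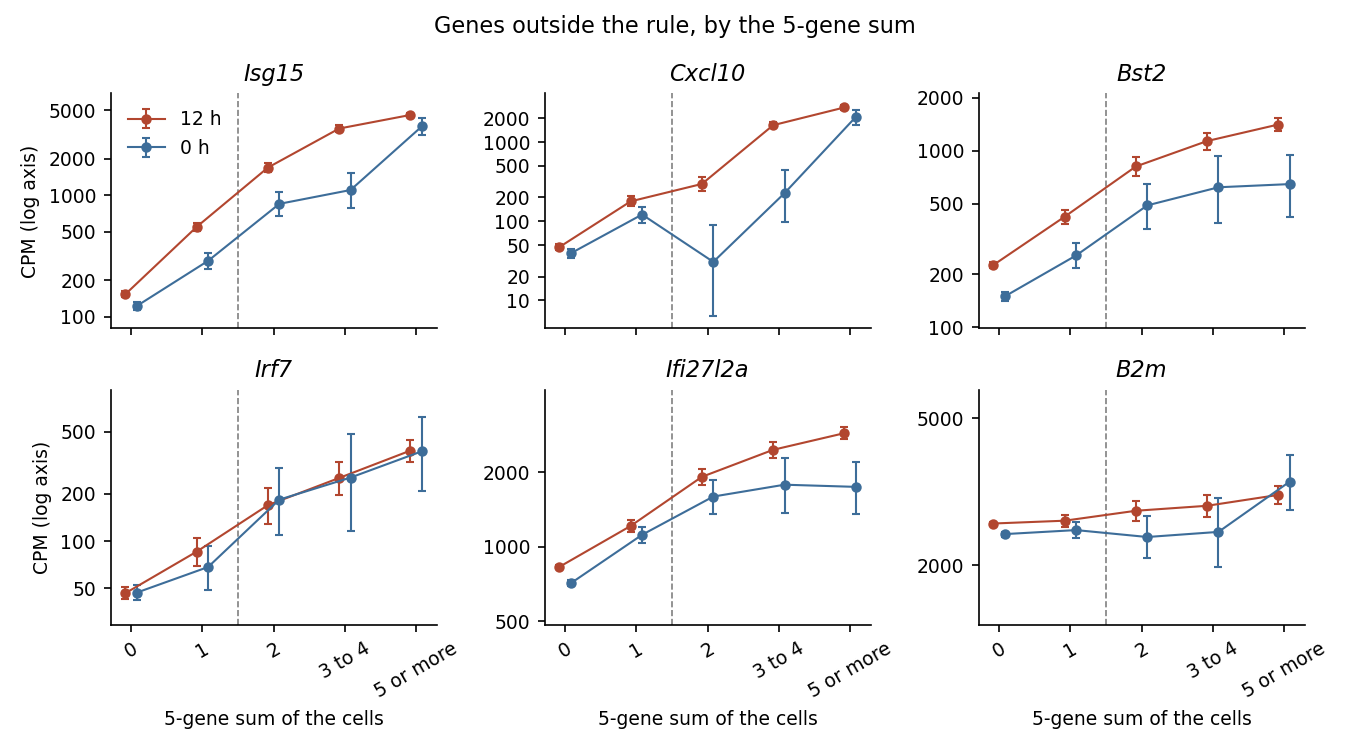
CPM (y axes, log scale, exact 95% intervals) of 6 genes outside the rule in T cells grouped by their 5-gene sum (x axes), in both IL-22-negative libraries (12 h, 0 h), with the dashed line at the bar. Isg15 at 12 h runs over 154, 550, 1686, 3524 and 4556 CPM, while the 12 h and 0 h intervals of Irf7 overlap in each class.

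Responders held a large part of the T-cell transcripts of these genes. At 12 h they made up 6.92% of T cells and 8.49% of T-cell UMIs and held 61.6% of the Isg15 UMIs, 71.5% of the Cxcl10 UMIs, 51.2% of the Slfn5 UMIs and 49.4% of the Isg20 UMIs of T cells. At 0 h, with 1.67% of T cells, they held 21.3% of the Isg15 UMIs, 19.3% of the Slfn5 UMIs and 13.8% of the Isg20 UMIs. Over all T cells Isg15 was 2.70 times as high at 12 h as at 0 h, and 1.41 times without the responders. Cxcl10 was 3.34 times as high, and 1.30 times without them. Bst2 kept more of its difference without responders, with 1.92 over all T cells and 1.55 without them. Responders were chosen by interferon transcripts and were a larger part of T cells at 12 h (6.92%) than at 0 h (1.67%). Smaller ratios without them are therefore in part built in.

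In single cells the antiviral list, expressed as UMIs per 1000 UMIs of the cell, had a median of 29.2 in responders of 12 h (10th to 90th percentile 12.3 to 56.3), 12.7 in cells with a sum of 1 and 9.23 in negative cells. At 0 h the medians were 19.0, 10.7 and 8.79. Of the responders 249 of 316 at 12 h (78.8%) and 34 of 55 at 0 h (61.8%) were above the 90th percentile of the negative cells of their library. The 5-gene rule thus also took in cells whose level of the wider program was within the range of most negative cells, at both times.

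Responders of 12 h and 0 h differed in part of the interferon program and in granzymes. Of 1588 genes, 55 were at least 2-fold higher at 12 h (3.46%) and 20 at least 2-fold lower (1.26%), together 75 genes (4.72%). The median log2 ratio was 0.10, and scaling by the median ratio gave 45 and 33. In negative T cells 4 of 2319 genes were higher (0.172%) and 5 lower (0.216%), on far larger sums. Of 11 measured genes of the type 1 and cytotoxic list 2 were at least 2-fold higher at 12 h and 1 was lower (median 0.30 on the log2 scale). The 0 h responders are 55 cells, so single cells weigh heavily in these ratios.

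Gzmb stood at 887 CPM in responders of 12 h and 98.1 CPM in those of 0 h (9.05, 5.62 to 15.6), and in negative T cells at 378 CPM at 12 h and 278 CPM at 0 h. Gzma was at 1723 against 392 CPM (4.39, 3.45 to 5.68), in 112 of 316 and 14 of 55 cells. Gzmc had 160 UMIs in 17 responders of 12 h and none at 0 h, which puts the 12 h level at least 9.03-fold higher with the 0 h sum set to the floor of 3 UMIs, while the exact interval starts at 7.26. These 3 granzymes, proteases of killer cells, were thus all higher in responders of 12 h than in those of 0 h. Gzma at 0 h depended on 1 cell with 44 of its 68 UMIs, and without that cell the ratio was 11.8.

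Against negative cells of the same library, Gzmb was higher in responders at 12 h (2.35, 2.18 to 2.52) and lower at 0 h (0.353, 0.205 to 0.566), where it was present in 11 of 55 responders and 731 of 3022 negative cells. Gzma showed ratios of 1.17 (1.12 to 1.23) at 12 h and 0.270 (0.209 to 0.342) at 0 h. Cd69-positive cells made up 71.5% of responders and 50.8% of negative cells at 12 h, and 61.8% and 51.9% at 0 h. Ccl3, a chemokine of activated lymphocytes, stood at 343 CPM in responders of 12 h and 843 CPM in those of 0 h (0.407, 0.335 to 0.497). Its 146 UMIs of 0 h lay in 5 cells, 89 of them in 1 cell. Without the cells that held markers of other leukocytes the ratio turned to 4.05 (2.28 to 7.94), on 12 UMIs at 0 h, and the list then had 4 of 10 genes higher and none lower.

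**Figure D5:**
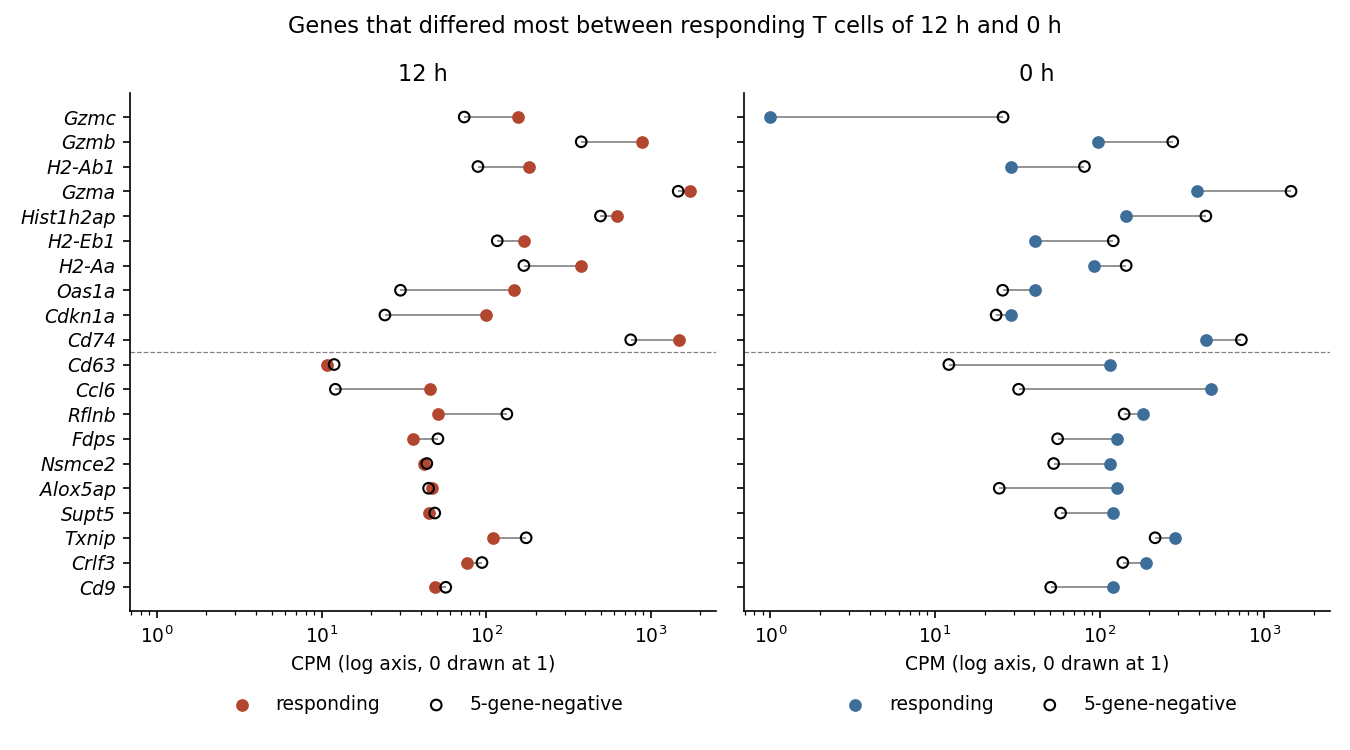
CPM (x axes, log scale, a sum of 0 drawn at 1) in responding (filled) and 5-gene-negative (open) T cells of 12 h and 0 h, for the 10 genes highest (above the dashed line) and the 10 lowest in responders of 12 h over those of 0 h. Gzmb in responders stands at 887 CPM at 12 h, right of the negative cells, and at 98.1 CPM at 0 h, left of them.

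The interferon genes themselves differed less between the times. Of 45 measured antiviral genes 6 were at least 2-fold higher in responders of 12 h and none was 2-fold lower, with a median log2 ratio of 0.49 against 0.10 for all genes. They were Oas1a, which makes the activator of RNase L (149 against 40.4 CPM, 3.68, 1.74 to 9.30), Isg20 (2.64), Parp14 (2.47), Ifitm3 (2.26), Isg15 (2.14) and Bst2 (2.06). Of the 12 measured GTPases only Gbp2 reached 2-fold (2.32, 1.26 to 4.76). Cxcl10 was at 2.99 (2.42 to 3.72) and Ifih1 at 2.50 (1.23 to 5.92), while Irf7 stood at 1.13 (0.817 to 1.61). The rule genes, summed, stood at 1461 CPM in responders of 12 h and 1010 CPM in those of 0 h.

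Other genes with high ratios rested on few cells or on other cell types. H2-Ab1 (6.30), H2-Eb1 (4.19), H2-Aa (4.06) and Cd74 (3.33), which present antigen in B cells and dendritic cells, came mostly from 5 of 316 responders with more than 3 class II UMIs, and none of the 55 responders of 0 h was of that kind. Without cells that held markers of other leukocytes the 4 ratios were 0.610, 0.411, 0.413 and 0.493, though 3 of these genes served to choose the cells left out. Hist1h2ap, a histone gene of dividing cells (4.34), had 159 of its 640 UMIs in 1 cell. Cdkn1a, which encodes the cell-cycle inhibitor p21, stood at 99.7 against 28.9 CPM (3.45, 1.43 to 10.9), with 28 of 102 UMIs in 1 cell.

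Of the genes lower at 12 h, Cd63 (0.0931), Ccl6 (0.0971) and Alox5ap (0.369), genes of granules, chemotaxis and leukotriene synthesis in myeloid cells and basophils, were held at 0 h by 2, 4 and 5 cells. Basophil genes were present in 2 of 55 responders of 0 h and in 1 of 316 of 12 h, and without the cells that held markers of other leukocytes the 3 ratios were 0.226, 0.169 and 0.0924. Rflnb was at 50.8 against 185 CPM (0.275, 0.174 to 0.442), Fdps, of the mevalonate pathway, at 36.2 against 127 CPM (0.285, 0.164 to 0.507) and Txnip, which restrains glucose uptake, at 109 against 289 CPM (0.379, 0.269 to 0.541). Nsmce2 (0.364), Supt5 (0.371), Crlf3 (0.400) and Cd9 (0.403) completed the named genes. Fos, of the immediate early genes that tissue digestion can induce, stood at 910 against 1928 CPM (0.472, 0.416 to 0.537), the only one of 15 measured genes of that list past 2-fold. Without the cells that held markers of other leukocytes it stood at 853 against 1349 CPM (0.632, 0.545 to 0.736), and none of 13 measured genes was then past 2-fold.

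Markers of other leukocytes, taken as whole lists, differed between responders and negative cells. The 13 monocyte and macrophage markers summed to 2121 CPM in responders and 1246 CPM in negative cells at 12 h, most of it Ly6c2, which T cells also express and which stood at 1357 against 725 CPM. The 10 B-cell markers summed to 1961 and 1045 CPM at 12 h and to 681 and 1077 CPM at 0 h, and Cd79a was at 0 by the rule. The 8 markers of plasmacytoid dendritic cells summed to 1307 and 323 CPM at 12 h and to 727 and 272 CPM at 0 h, mostly through Bst2 and Irf8, which interferon also induces, while Siglech was at 0 by the rule. The 9 NK and ILC1 markers summed to 1482 and 1911 CPM at 12 h. The 5 basophil markers summed to 19.5 and 1.20 CPM at 12 h and to 92.3 and 5.84 CPM at 0 h, on 20 and 16 UMIs in responders. Without the cells that held basophil, class II or calprotectin transcripts, 309 responders and 3826 negative cells of 12 h gave 36 of 42 measured antiviral genes at least 2-fold higher, and all 10 GTPases. At 0 h 21 of 31 antiviral genes were. These counts use the same minimum level, which genes low in negative cells pass only through responders. The B-cell markers then summed to 371 and 387 CPM at 12 h and to 705 and 820 CPM at 0 h, though H2-Aa of that list helped to choose the cells left out.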

How the data were processed

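The deposited matrices hold UMI counts, whole numbers per gene and barcode, from CD45-positive liver cells in 10x Single Cell 3' v2 libraries, per the labels' protocols. They were written by Cell Ranger 4.0.0 per the file headers, whereas version 3.0.1 and mm10 stand in the submitters' processing notes. The files list 32285 genes. The libraries hold 5048583 (IL-22-positive, 12 h), 1148221 (IL-22-positive, 0 h), 29859062 (IL-22-negative, 12 h) and 18891674 (IL-22-negative, 0 h) UMIs.

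Kept barcodes had 200 or more genes and less than 10% mitochondrial UMIs. UMIs of each class were summed per library and scaled to counts per 1000000 UMIs (CPM). Ratios have exact conditional 95% intervals, shares exact Clopper-Pearson intervals, sums exact Poisson intervals and ratios of shares log-normal (Katz) intervals, all for counting error. With 1 library per group there is no test, and a ratio between times compares 2 libraries. Genes entered counts with a mean of at least 50 CPM over both sums and 20 UMIs in the higher sum, leaving out the 5 rule genes, segments of antigen receptors, hepatocyte, Y-linked and mitochondrial genes, Xist and genes of ribosomal proteins. The 20 highest and 10 lowest ratios at 12 h and the 10 highest and 10 lowest between the times were named, besides list members. The members and lists were chosen with earlier results of these data known. The lists cover antiviral effectors, GTPases, interferon signalling, class I presentation, T-cell states and markers of other cells. Several list results given only here are, at 12 h, a median log2 ratio of -0.41 for inhibitory receptors, -0.38 for residency and -0.80 for innate-like genes, with none of their genes 2-fold different.

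Doublets were kept, since the automatic threshold of Scrublet (in scanpy 1.11.5) marked 0 to 2 barcodes per library. As an alternative the top scores were removed at 0.8% per 1000 barcodes, which took 15 responders of 12 h and 1 of 0 h. Other alternatives were other minimum sums, thinning to 1000 UMIs, stricter gates, other scaling and minimum levels, negative cells of equal depth, and leaving out single top cells. Leaving out cells with markers of other leukocytes, Cd8b1-positive cells alone and thinning of the 5-gene sum alone were added after seeing the data. Near-identical genes may share reads. Results for certain genes are not reported here. Python 3.11.15, numpy 2.4.6, scipy 1.17.1 and pandas 2.3.3 were used, and the ratios were checked on simulated counts.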

Additional observations from a re-analysis of the deposited data

Results flagged for a closer look

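Gzmb differed in direction between the times. Its ratio of responding over 5-gene-negative T cells was 2.35 at 12 h and 0.353 at 0 h in IL-22-negative cells, where 17 UMIs in 11 of 55 responders carry the value. H2-Ab1 likewise had a ratio of 2.04 at 12 h and 0.357 at 0 h, on 186 UMIs in 22 responders of 12 h, 58 of them in 1 cell, and on 5 UMIs in 4 responders of 0 h. Both differences between the times were not tested, since each time is 1 library.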

How the results depend on the processing

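Every comparison rests on 1 library per time, so no replicate could be left out and biological spread is unknown. No paired analysis was possible because each group has 1 library. At a minimum sum of 1 the responding shares were 14.8% at 12 h and 8.40% at 0 h, with a ratio of 1.77, and at a minimum of 3 they were 4.47% and 0.758%, with a ratio of 5.89. Thinned to 1000 UMIs they were 3.09% and 0.645%, and with the 5-gene sum alone thinned 3.30% and 0.701%. The numbers of genes 2-fold higher at 12 h and 0 h, and 2-fold different between the times, were 53, 29 and 40 at a minimum mean of 100 CPM and 930, 1167 and 2151 with no minimum. A minimum sum of 3 gave 160 genes between the times. Cd8b1-positive cells alone gave 188 between the times and 20 higher at 0 h. Without cells with markers of other leukocytes these ratios turned direction: S100a9 1.29, S100a8 1.71, H2-Ab1 0.610, H2-Eb1 0.411, H2-Aa 0.413 and Cd74 0.493. In Cd8b1-positive cells alone they were 3.65, 2.15, 0.291, 0.364, 0.466 and 0.422 in the same order, and Ccl6 turned to 6.40. The genes turned by leaving out marker cells, except Cd74, also chose those cells, so that turn is partly built in. The cause was not tested. Among main values under alternatives, the 19 that moved are those above and 40 stayed within the bounds set for them, and among single genes and subsets 74 moved, 13 turned direction and 363 stayed. Small numbers of cells limit the Zbtb16-positive, Trdc-positive and Foxp3-positive shares and all ratios on the 55 responders of 0 h.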

Other observations

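Of the 96 genes at least 2-fold higher in responding than in 5-gene-negative T cells of 12 h, 38 belong to no interferon list, and the following were chosen after their values were seen. Jaml, a junction adhesion molecule of lymphocytes, stood at 235 against 42.7 CPM at 12 h (5.49, 4.67 to 6.45) and at 115 against 34.1 CPM at 0 h (3.38, 2.03 to 5.34). Ppa1, a pyrophosphatase, stood at 299 against 56.1 CPM at 12 h (5.33, 4.63 to 6.14) and at 139 against 46.7 CPM at 0 h (2.96, 1.87 to 4.49). Gadd45g, a stress-response gene, was at 186 against 43.2 CPM at 12 h (4.30, 3.60 to 5.11) and at 133 against 44.0 CPM at 0 h (3.01, 1.88 to 4.61). Plac8 was at 474 against 195 CPM at 12 h (2.42, 2.19 to 2.68) and at 467 against 167 CPM at 0 h (2.79, 2.20 to 3.50).

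Other genes of the same kind at 12 h were Ccrl2, an atypical chemoattractant receptor (4.82, 3.86 to 5.98), Cdkn1a (4.11, 3.23 to 5.20), Il10ra, a chain of the interleukin-10 receptor (2.32, 1.78 to 2.98), Icam1, an adhesion molecule (2.13, 1.75 to 2.57), and Tnfsf10, the death ligand TRAIL (2.06, 1.62 to 2.61). These ratios come from the contrast that chose the cells and describe it.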
